A study of Mus musculus with 2 samples.

Results

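The immunoglobulin-family cell adhesion molecules described here are 8 mouse genes, Ncam1, Ncam2, L1cam, Alcam, Mcam, Icam1, Vcam1 and Cadm1, of the 23420 gene symbols counted in CE1-4 cells. CE1-4 is a mouse prostate cancer cell line, and its RNA was sequenced after 6 h with prostaglandin E2 (PGE2) and without treatment, in 1 library each. The genes were chosen by name as neural, leukocyte-binding and epithelial adhesion molecules, with the measured counts of these libraries, among them the abundant Ncam1, already known, so their levels are given as a description. All 8 symbols were found in the count table. The labels name no genotype, transgene, vehicle or PGE2 dose, nor how long the untreated cells were cultured. PGE2, its solvent and culture time cannot be told apart in this design, and with 1 library per group no difference has a replicate check.

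Immunoglobulin-family adhesion molecules are cell surface proteins with an extracellular stretch of immunoglobulin-like domains, which bind the same protein on the next cell, another family member, or an integrin. Many are cut from the surface by metalloproteinases, and their short cytoplasmic tails connect to the actin or spectrin skeleton. NCAM1 and L1CAM are best known from axons, ICAM1 and VCAM1 from the capture of leukocytes by inflamed endothelium, and CADM1 and ALCAM from lateral contacts between epithelial cells. PGE2 acts through G protein-coupled receptors, some of which raise cAMP.

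For a view of the regulatory letters near these genes, the 250 bases before the RefSeq transcript start are shown for the 3 genes that reached 1 CPM (a gene's count relative to its library's scaled total) in a library and have an entry in the promoter table, on build GRCm38.p6 and read 5′ to 3′ on the gene's strand. The capitals mark matches to GGNNNTTCC, a spelling of the NF-kB site, in Icam1, to the cAMP response element TGACGTCA in Mcam, and to its core TGACG, which lies on the other strand, in Alcam.
Icam1: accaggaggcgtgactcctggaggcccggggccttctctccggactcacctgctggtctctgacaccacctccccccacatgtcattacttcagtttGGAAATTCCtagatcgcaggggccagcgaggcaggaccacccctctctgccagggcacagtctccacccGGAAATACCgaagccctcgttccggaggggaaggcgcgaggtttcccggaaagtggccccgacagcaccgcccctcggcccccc
Mcam: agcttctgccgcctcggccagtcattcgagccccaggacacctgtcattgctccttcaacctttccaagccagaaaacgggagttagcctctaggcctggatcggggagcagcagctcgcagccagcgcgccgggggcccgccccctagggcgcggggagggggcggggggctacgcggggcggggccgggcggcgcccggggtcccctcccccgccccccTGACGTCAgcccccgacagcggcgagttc
Alcam: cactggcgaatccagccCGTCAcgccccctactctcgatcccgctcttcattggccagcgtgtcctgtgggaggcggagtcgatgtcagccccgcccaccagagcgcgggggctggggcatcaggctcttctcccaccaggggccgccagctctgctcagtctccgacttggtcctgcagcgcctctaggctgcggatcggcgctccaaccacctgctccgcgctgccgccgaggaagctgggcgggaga
These windows are chr9:21015690-21015939 on the plus strand for Icam1, chr9:44134408-44134657 on the plus strand for Mcam and chr16:52453082-52453331 on the minus strand for Alcam. In Icam1 the letters GGAAATTCC began 153 bases before the start and matched on both strands, and GGAAATACC began 84 bases before it and matched on the other strand. GGNNNTTCC was found on either strand in 15.7% of the 32851 promoter windows of the table. In Mcam the full TGACGTCA began 29 bases before the RefSeq start, and the TGACG matches on both strands lie inside it. The GENCODE gene spans given below start farther upstream for some genes. The Mcam span starts at 44134469, so most of the Mcam window, with the TGACGTCA, lies inside it. The Alcam window lies wholly inside the Alcam span, which ends at 52454074, and the L1cam windows lie inside the L1cam span. Those letters are therefore upstream of the RefSeq start only. TGACGTCA was present in 1.55% of all windows and TGACG in 17.8%. A longer NF-kB spelling, held by 4.63% of windows, and TATAAA, held by 12.4%, were found in none of the members' windows. The promoter table held 5 of the 8 genes. Ncam2 and L1cam had no match to any of these motifs, which says only that these letters are not in the windows. Ncam1, Cadm1 and Vcam1 are not in the table. The windows of the 5 genes held between 12 and 32 CpG dinucleotides, against a median of 6 over all windows, and the highest number belonged to Ncam2.

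The libraries held 17582808 counts for the PGE2-treated and 16908429 for the untreated cells, so that 1 CPM stood for 17.6 and 16.9 counts. Where a gene had 0 counts, its level may reach 0.170 CPM in the treated and 0.178 CPM in the untreated library, the equivalent of 3 counts. Markers were read to check the label of a prostate epithelial tumor line. Krt8, Krt18 and Cdh1 were detected, Epcam was at 25 treated and 31 untreated counts, and the prostate gene Pbsn had 0 counts in both libraries. The 4 mesenchymal genes looked at, among them Vim, were all at 1 CPM or more. Of 4 endothelial markers none reached 1 CPM, with a sum of 0.170 CPM treated and 0.119 CPM untreated and Cdh5 at 0. Of 5 leukocyte markers 1 reached it, Cd68, with a sum of 3.80 CPM treated and 4.15 CPM untreated and Adgre1 and Cd3e at 0. Each of these summed levels covers the whole marker list. In bulk RNA, fewer cells of a type and less RNA per cell cannot be told apart, and this holds for every level below.

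The 8 genes ranged from among the most abundant to undetected. Ncam1 lay far above the others, Cadm1 followed, Alcam was expressed at a low level, Mcam and Icam1 stood near 1 CPM, Vcam1 was below 1 CPM, and L1cam and Ncam2 were at or below the limit of detection. The genes together took 0.0761% of the treated and 0.0755% of the untreated counts. Within this sum Ncam1 held 78.5% (exact 95% binomial interval 77.8 to 79.2%) in treated cells and 79.2% (78.5 to 79.9%) in untreated cells, a share that does not depend on how the libraries are scaled. Cadm1 held 19.7% (19.1 to 20.4%) in treated and 19.3% (18.6 to 20.01%) in untreated cells. The intervals of the libraries overlap for both genes. All intervals cover counting error only.

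To compare levels between genes, CPM was divided by the length of the union of each gene's annotated exons in kb. On this scale of CPM per kb, Ncam1 was at 68.8 in treated and 69.1 in untreated cells, rank 638 and rank 629 of the genes with a length. Cadm1 was at 14.3 in treated and 14.0 in untreated cells, and Alcam at 1.44 in treated and 1.22 in untreated cells. Each of these steps was larger than the counting error, since Ncam1 was 4.79 times (4.59 to 5.01) as high as Cadm1 in treated and 4.94 times (4.73 to 5.16) in untreated cells, and Cadm1 9.95 times (8.56 to 11.6) as high as Alcam in treated and 11.5 times (9.74 to 13.7) in untreated cells. With the longest transcript as the length, the first ratio was 2.89 in treated cells, so its size depends on the gene model. Mcam, at 0.322 in treated and 0.301 in untreated cells, and Icam1, at 0.247 in treated and 0.258 in untreated cells, did not differ beyond counting error, with an Icam1 to Mcam ratio of 0.768 (0.385 to 1.53) in treated and 0.859 (0.423 to 1.76) in untreated cells. Icam1 was 4.83 times (2.02 to 12.8) as high as Vcam1 in treated and 3.22 times (1.48 to 7.28) in untreated cells. L1cam overlapped Vcam1 in its counting interval in treated cells and lay below it in untreated cells. Ncam2 had no count in either library. It was last in treated cells and tied with L1cam, also at 0 counts, in untreated cells.

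**Figure D1:**
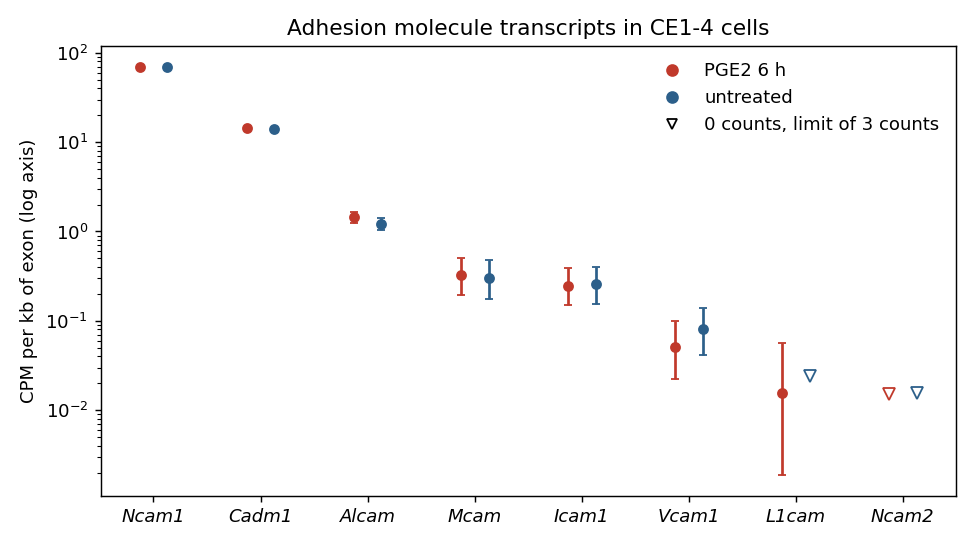
Level of each of the 8 genes in CPM per kb of exon on a log axis, with the PGE2-treated library left of the untreated library; bars are exact 95% Poisson intervals and open triangles mark the limit of 3 counts for a library with 0 counts. Ncam1 stands at 68.8 and 69.1, Cadm1 at 14.3 and 14.0, and for each gene detected in both libraries the bars of the libraries overlap.

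None of the 8 genes differed between treated and untreated cells beyond counting error. Of the 5 genes that reached 1 CPM in a library, 0 passed a rule of at least 2-fold with a counting interval that leaves out a ratio of 1, against 0.316% of all 11387 tested genes, and 0 passed the same rule at 1.5-fold, against 0.826%. For 0 of the 5 the interval lay above a ratio of 1 at any size, against 6.61% of tested genes, and for 0 it lay below, against 5.65%. With so few members these shares do not set the members apart from the other genes. Over the 5 genes the log2 ratios of treated over untreated cells had a median of 0.04, and over all tested genes of -0.0015. The other 3 genes, Vcam1, L1cam and Ncam2, did not reach 1 CPM and were left out of these counts.

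**Figure D2:**
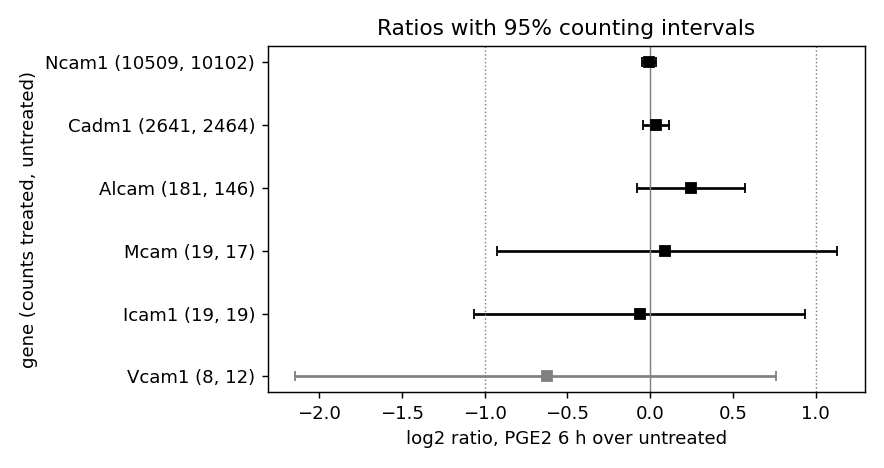
Log2 ratio of the PGE2-treated over the untreated library for 6 genes, with 95% Clopper-Pearson intervals from the counts given beside each name; dotted lines mark a 2-fold difference and Vcam1, under 1 CPM, is in grey. All intervals hold 0, and they widen from Ncam1, with 10509 and 10102 counts, to Vcam1, with 8 and 12 counts.

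Among the neural molecules, Ncam1 encodes the neural cell adhesion molecule, also called CD56, which binds itself across cells and is used in pathology as a marker of neuroendocrine tumors. It had 10509 counts in the treated and 10102 in the untreated library, or 596 CPM (585 to 608) in treated and 599 CPM (587 to 611) in untreated cells. These levels overlap. The log2 ratio was -0.0073 (-0.05 to 0.03), a fold of 0.995 with an interval of 0.968 to 1.02. Ncam1 belongs to the 622 tested genes whose summed counts reached 10000, and 46.3% of these had an interval that left out a ratio of 1. Ncam1 (ENSMUSG00000039542.16) spans 49502136 to 49798925 of chromosome 9, minus strand of GRCm38, with 7 annotated transcripts. The counts are per gene and do not separate its isoforms, which differ in how they are held in the membrane. The antisense gene Gm11149 shares 417 exon bases with it and had 18 treated and 20 untreated counts. The strand setting of the counting is not given, so reads from those bases cannot be told apart between the genes.

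Apart from Eno2, the other neuroendocrine or neural markers looked at stayed below 1 CPM beside the high Ncam1. Of 8 neuroendocrine or neural markers, 1 reached 1 CPM, Eno2, at 14.7 CPM in treated and 13.8 CPM in untreated cells. Chga, which encodes the granule protein chromogranin A, and Insm1 and Rbfox3, which encode a transcription factor and a splicing regulator, had 0 counts in both libraries. Syp, which encodes the vesicle protein synaptophysin, had 4 treated and 3 untreated counts, and Tubb3 had 13 treated and 10 untreated counts. Of the 4 Schwann cell markers none reached 1 CPM, and Sox10 had 0 counts.

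Ncam2, the paralog of Ncam1 known from olfactory axons (ENSMUSG00000022762.18, chromosome 16, 81200697 to 81626828, plus strand), had 0 counts in both libraries. Taken as 3 counts, a 1-sided limit, this allows up to 0.0150 CPM per kb in treated and 0.0157 CPM per kb in untreated cells, and no ratio is given. L1cam, which guides axons and is raised in several invasive human carcinomas (ENSMUSG00000031391.18, chromosome X, 73853778 to 73896105, minus strand), had 2 treated and 0 untreated counts. Both values are within the limit of 3 counts, and no ratio is given. L1cam shares 100 exon bases with Arhgap4, a protein-coding gene on the same strand. The L1 relatives Chl1, Nrcam and Nfasc were also below 1 CPM, with at most 15 counts in both libraries together. Ncam1 was therefore the 1 member of the 3 neural molecules with a measurable level here.

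Among the epithelial molecules, Cadm1 encodes a nectin-like adhesion molecule, also called TSLC1, that binds itself or other nectins and was named as a tumor suppressor in human lung cancer. It had 2641 treated and 2464 untreated counts, or 149.8 CPM (144 to 156) in treated and 146 CPM (140 to 152) in untreated cells. These levels overlap. The log2 ratio was 0.04 (-0.04 to 0.12). Its summed counts place it among 1885 tested genes between 3000 and 10000, whose log2 ratios had a standard deviation of 0.065, and 20.6% of which had an interval that left out a ratio of 1. Cadm1 (ENSMUSG00000032076.19) spans 47530173 to 47857637 of chromosome 9, plus strand. Its log2 ratio differed from that of Ncam1 by less than counting error, with Ncam1 minus Cadm1 at -0.04 (-0.13 to 0.05).

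Alcam encodes CD166, which binds itself and the lymphocyte receptor CD6. It had 181 treated and 146 untreated counts, or 10.3 CPM (8.82 to 11.9) in treated and 8.66 CPM (7.31 to 10.2) in untreated cells, with overlapping intervals. The log2 ratio of 0.24 (-0.08 to 0.57) was the highest of the 5 tested genes, and its interval held 0. It was above the ratios of 97.1% of the 3013 tested genes whose summed counts lay between 300 and 1000, and the standard deviation of those ratios was 0.14. The bound of 1.48-fold limits how much higher Alcam could be in treated cells within counting error. Its ratio minus that of Ncam1 was 0.25 (-0.06 to 0.57), so the difference between these genes did not exceed counting error either. Alcam (ENSMUSG00000022636.13) spans 52248996 to 52454074 of chromosome 16, minus strand.

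**Figure D3:**
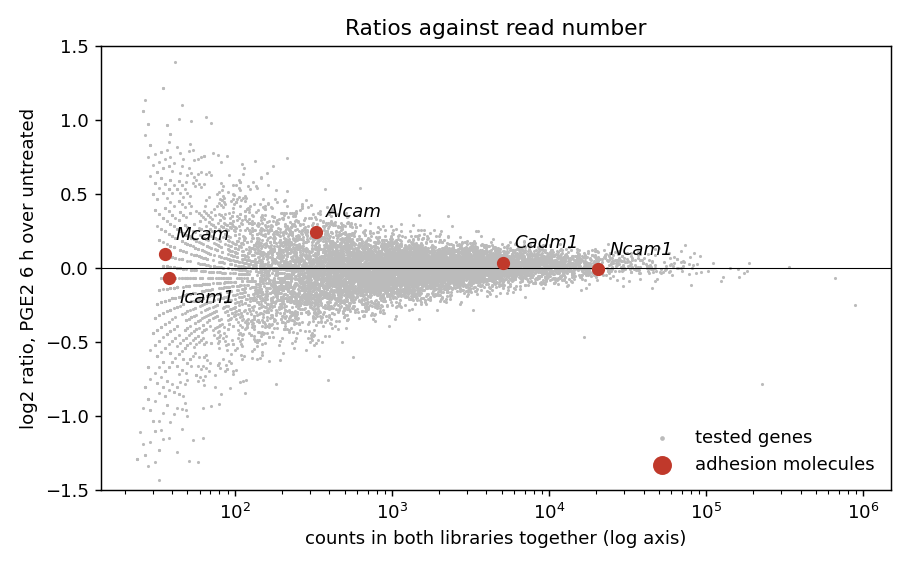
Log2 ratio of the PGE2-treated over the untreated library against the counts of both libraries together on a log axis, for all tested genes in grey and the 5 tested adhesion molecules in red; 8 tested genes with a log2 ratio beyond 1.5 in size lie outside the axis. Ncam1 and Cadm1 lie in the narrow part of the cloud, Mcam and Icam1 in its wide part, and Alcam, at 0.24, near its upper edge.

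The molecules that hold leukocytes were scarce. Icam1 encodes the ligand of the leukocyte integrins LFA-1 and Mac-1 and is known to be raised by NF-kB and interferon signaling. It had 19 counts in the treated and 19 in the untreated library, at 1.08 CPM (0.649 to 1.68) in treated and 1.13 CPM (0.678 to 1.76) in untreated cells. The log2 ratio of -0.06 had a wide interval of -1.06 to 0.93. An Icam1 level 1.91-fold higher in treated cells is at the bound of counting error, so larger rises lie outside it. Icam1 (ENSMUSG00000037405.8) spans 21015985 to 21028817 of chromosome 9, plus strand, and shares 511 exon bases with the antisense gene Gm47079. Vcam1 encodes the ligand of the integrin alpha4 beta1 (ENSMUSG00000027962.14, chromosome 3, 116109949 to 116129688, minus strand). It had 8 treated and 12 untreated counts, or 0.454 CPM (0.196 to 0.894) in treated and 0.712 CPM (0.368 to 1.24) in untreated cells, with a log2 ratio of -0.62 (-2.15 to 0.76). As a fold this interval runs from 0.226 to 1.70, so a rise or fall of Vcam1 within those bounds was not detectable at this depth. Vcam1 shares 61 exon bases with the antisense gene Gm43109.

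Mcam encodes CD146, an adhesion molecule of endothelium, pericytes and melanoma that binds laminins and galectins. It had 19 treated and 17 untreated counts, or 1.08 CPM (0.649 to 1.68) in treated and 1.01 CPM (0.587 to 1.61) in untreated cells. Its log2 ratio of 0.09 (-0.93 to 1.13) had an interval that reaches past 2-fold upward. Its window before the RefSeq start, printed above, is the 1 of the 5 genes' windows with the full cAMP response element letters. These letters lie inside the GENCODE span of Mcam. Of the 4 pericyte or smooth muscle markers Acta2 and Rgs5 reached 1 CPM. Myh11 had 3 treated and 5 untreated counts, and Des had 1 treated and 0 untreated counts. The whole list summed to 8.45 CPM in treated and 7.29 CPM in untreated cells. The part of such cells in the Mcam level was not tested. Mcam (ENSMUSG00000032135.15) spans 44134469 to 44142727 of chromosome 9, plus strand, and shares 17 exon bases with the antisense gene Gm10687. Mcam and Icam1 belong to the 1184 tested genes with summed counts between 30 and 100, of which 4.39% had an interval that left out a ratio of 1, and whose log2 ratios had a standard deviation of 0.42.

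The wider family was covered by a list of 58 other immunoglobulin superfamily adhesion genes, all found in the table. Of these 25 reached 1 CPM and 21 had 0 counts in both libraries. Together with the 8 genes, 30 of 66 reached 1 CPM. By CPM per kb Ncam1 had rank 2 of the 66 in both libraries, behind Bsg, which encodes basigin, a partner of lactate transporters, at 312 in treated and 330 in untreated cells. The next were Nptn, encoding neuroplastin, at 54.1 in treated and 55.4 in untreated cells, and F11r, encoding the tight junction protein JAM-A, at 41.9 in treated and 42.3 in untreated cells. Cadm1 stood next to Nectin3, listed in the table under its older symbol Pvrl3, which was at 14.8 in treated and 14.2 in untreated cells.

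Of the 6 contactins 1 reached 1 CPM, Cntn5, with 16 treated and 20 untreated counts, and 3 had 0 counts. The 5 IgLON genes, which encode lipid-anchored neuronal molecules, had at most 1 count in both libraries together, and the 4 genes Dscam, Dscaml1, Sdk1 and Sdk2 had 0. Of the other SynCAM genes Cadm4 had 69 treated and 73 untreated counts, Cadm2 had 0 treated and 2 untreated counts and Cadm3 had 0. The other ICAM genes and Madcam1 all lay below 1 CPM, with Icam4 at 3 counts in each library and Icam5 at 0 treated and 4 untreated counts. At 1 CPM or more were 4 of the 5 genes made up of the nectins and Pvr, and 5 of the 8 genes of the JAM and CAR group, in which Esam and Vsig1 had 0 counts. These subgroups were formed after the values had been seen.

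Of the 25 tested genes of that list, 0 had an interval above a ratio of 1 and 2 had an interval below it, and none passed the 2-fold rule. The median log2 ratio was -0.02. The lower genes were Bsg, with 9974 treated and 10081 untreated counts and a log2 ratio of -0.08 (-0.12 to -0.04), and Kirrel, encoding a nephrin-like molecule, with 608 treated and 672 untreated counts and -0.21 (-0.37 to -0.05). The share below, 8%, is near the 5.65% of all tested genes.

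**Figure D4:**
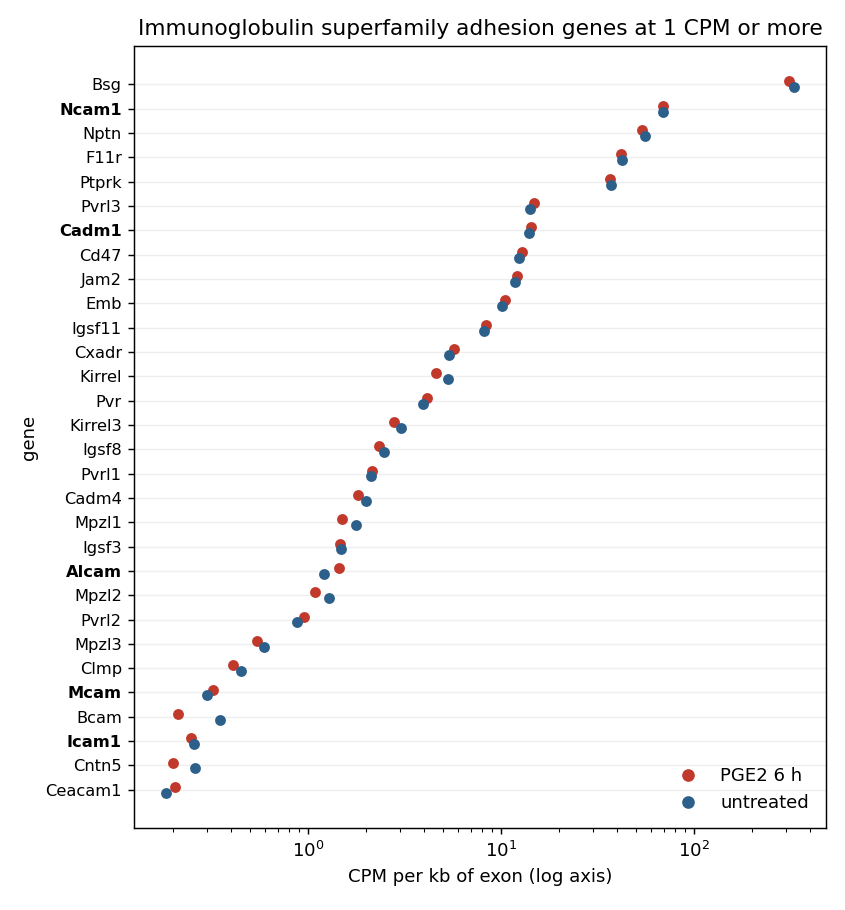
Levels in CPM per kb of exon, on a log axis, of the 30 immunoglobulin superfamily adhesion genes that reached 1 CPM in a library, with the PGE2-treated library drawn above the untreated one in each row and the 5 members of the 8 in bold. Ncam1 is second to Bsg. The libraries lie close together for the abundant genes and farther apart for some genes with few counts. Bcam, for example, is at 0.213 in treated and 0.352 in untreated cells, from 12 treated and 19 untreated counts, a difference within counting error.

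Partners of the 8 proteins were read from a list of 30 ligands and counter-receptors, of which 19 were tested. Spn, encoding the sialomucin CD43, a ligand of ICAM1, was the 1 gene with an interval above a ratio of 1, with 155 treated and 112 untreated counts and a log2 ratio of 0.40 (0.04 to 0.77). Itgb3, encoding the integrin beta3 chain that takes part in binding L1CAM, was the 1 gene below, with 2192 treated and 2385 untreated counts and -0.19 (-0.27 to -0.10). The most abundant per length were Lgals1 and Lgals3, encoding galectins, at 587 and 301 CPM per kb in treated and 579 and 305 CPM per kb in untreated cells, and Itgb1, the integrin beta1 chain, at 418 in treated and 412 in untreated cells. The 1 gene above and the 1 gene below a ratio of 1 were 5.26% of the 19 tested each, against 6.61% above and 5.65% below among all tested genes. The median log2 ratio of the list was -0.02.

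Transcripts of single receptor chains that leukocytes use for these molecules ranged from undetected to abundant. Itgal, the alpha chain of LFA-1, had 3 treated and 1 untreated count, and Itgam, that of Mac-1, had 1 count in each library. Their shared beta chain gene Itgb2 had 19 treated and 20 untreated counts (log2 ratio -0.14, -1.12 to 0.84). Itgb7, a beta chain that pairs with the alpha4 chain, had 1356 treated and 1331 untreated counts, or 27.8 CPM per kb in treated and 28.5 in untreated cells (-0.04, -0.15 to 0.07). Cd6, the receptor of ALCAM, had 1 treated and 0 untreated counts, and Crtam, a receptor of CADM1 on lymphocytes, had 0 in both. Itga4, which pairs with beta1 to bind VCAM1, had 97 treated and 103 untreated counts (log2 ratio -0.15, -0.57 to 0.26). Its level was 0.394 CPM per kb in treated and 0.437 in untreated cells, far below that of Itgb7.

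Of the partners of NCAM1 several were measured. Fgfr1, a receptor that NCAM1 is known to engage in neurons, had 135 treated and 153 untreated counts (log2 ratio -0.24, -0.59 to 0.10). Gfra1, which encodes a receptor of the growth factor GDNF that can signal with NCAM1, had 575 treated and 534 untreated counts (0.04, -0.13 to 0.22), and Gdnf itself 165 treated and 167 untreated counts. Ret, the other signaling partner of Gfra1, had 4 treated and 1 untreated count. Thus transcripts of GDNF, its receptor and NCAM1 were present together with little Ret. The polysialyltransferase genes, whose products put polysialic acid on NCAM1, were scarce. St8sia2 had 42 treated and 51 untreated counts (-0.34, -0.97 to 0.27), and St8sia4 had 2 treated and 3 untreated counts. Of the 10 glycan enzyme genes in that list 4 were tested, Neu1, Neu3, B3gat2 and St8sia2, and 0 of them had an interval above or below a ratio of 1.

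Of 20 genes that induce Icam1 and Vcam1 or carry that signal, 16 were tested, 0 had an interval above a ratio of 1, against 6.61% of all tested genes, and 2 (12.5%) had one below, against 5.65%. Those below were the tumor necrosis factor receptor genes Tnfrsf1a, with 433 treated and 495 untreated counts and a log2 ratio of -0.26 (-0.45 to -0.07), and Tnfrsf1b, with 826 treated and 916 untreated counts and -0.21 (-0.35 to -0.08). The NF-kB subunit gene Rela was at 31.2 CPM in treated and 32.7 CPM in untreated cells (-0.07, -0.24 to 0.10). The cytokine genes Tnf, with 12 treated and 7 untreated counts, and Il1b and Ifng, with 0 counts in both libraries, did not reach 1 CPM. The most abundant per length of this list were Ifngr1, at 46.7 CPM per kb in treated and 46.9 in untreated cells, Stat6, at 38.7 in treated and 39.6 in untreated cells, and Ifngr2, at 14.4 in treated and 15.02 in untreated cells.

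Of the 8 genes 4 lie on chromosome 9. The pair with the highest levels, Cadm1 and Ncam1, point toward each other there, with 1644.5 kb and other genes between them. The interval was looked at after these levels had been seen. With 500 kb added on each outer side, it held 19 genes of the table, Cadm1 and Ncam1 among them, of which 10 were tested and 7 had 0 counts in both libraries. Gm11149 lies inside the Ncam1 span, with the counts given above. Ttc12, the nearest table gene outside that span, had 30 treated and 22 untreated counts, and Ankk1 and Drd2 beyond it had 0 counts. Above 10 CPM per kb in treated cells were 4 genes, Ncam1, Cadm1, Rbm7 at 22.1 in treated and 22.2 in untreated cells, and Rexo2 at 18.9 in treated and 19.9 in untreated cells. Abundant and undetected genes therefore lie side by side along this stretch.

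**Figure D5:**
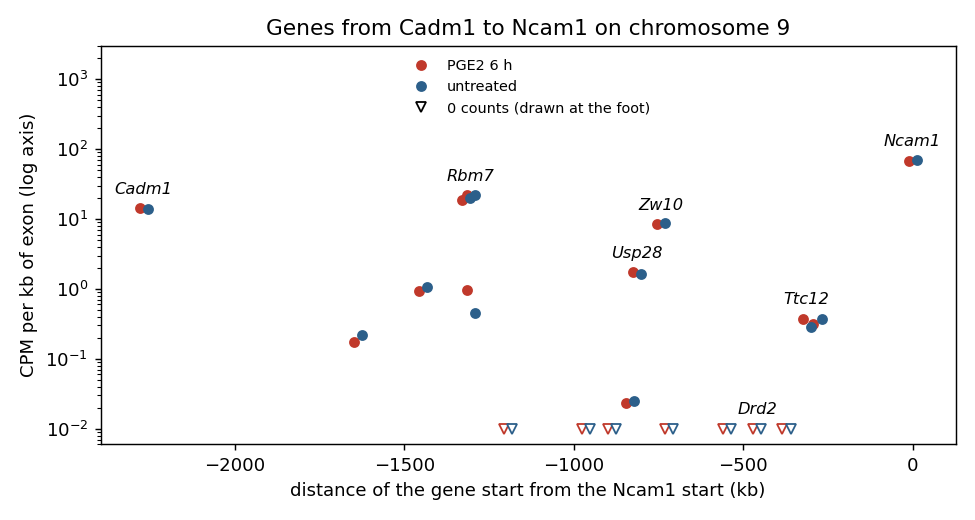
Level in CPM per kb of exon, on a log axis, against the distance of each gene's start from the Ncam1 start in kb, for the 19 genes from Cadm1 to Ncam1; the PGE2-treated library is drawn slightly left of the untreated one, and open triangles at the foot mark 0 counts. Ncam1 and Cadm1 stand high at the ends, and 7 genes between them had no count.

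The genes nearest in level to each abundant member were found by the distance of log2 CPM per kb over the 2 libraries, which is a weak measure of likeness. For Ncam1 they were Psmd8 (distance 0.010), Erh (0.015) and Nek7 (0.018). For Cadm1 they were Ndufaf1, AI837181 and Cluh, with distances of 0.0058 to 0.015, and for Alcam Metrn, Spsb2 and Unkl, with distances of 0.036 to 0.045.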

How the data were processed

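RNA of CE1-4 cells, 1 PGE2-treated and 1 untreated library, was sequenced as stranded total RNA after column extraction, per the labels' protocols. The table deposited by the authors gives unnormalized read counts for each symbol. Trimmomatic, TopHat2, Bowtie, HTSeq and build mm10 are named in the submitters' processing notes. Not given in the sources used here are versions, annotation, strand setting and the handling of reads from overlapping genes.

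Counts were scaled by TMM in edgeR 4.0.16 (R 4.3.3), with factors of 1.003 treated and 0.997 untreated. Log2 ratios used a prior of 0.5 counts and 95% Clopper-Pearson intervals, and levels exact Poisson intervals (scipy 1.17.1). Such intervals show counting error alone. No p-value was computed, since each group is 1 library. A gene was tested from 1 CPM in at least 1 library. Exon lengths and coordinates are from GENCODE M21 (GRCm38, which is mm10) and covered 11311 of the 11387 tested genes. Promoter sequences are from RefSeq. The procedure was tested on simulated data. Protein sequences were not used here.

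The members and lists were chosen with earlier results of these data known. In each list the genes to be named were the 3 most abundant per length and up to 2 per direction farthest from a ratio of 1. Other list genes were chosen after their values were seen. Some list and marker genes are not reported here. Alternatives were other scalings, another prior, interval level, minimum, fold and length, with DESeq2 1.42.0 for its size factors.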

Additional observations from a re-analysis of the deposited data

How the results depend on the processing

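No replicate could be left out, since each group is 1 library. No paired analysis was possible because each group holds 1 library. For the 5 tested adhesion genes, 25 of 25 alternative log2 ratios under other scalings and a prior of 5 counts lay within the counting interval. The library factors of all scalings lay between 0.994 and 1.006, so they could hardly move a ratio out of its interval. This is therefore a weak check. Ncam1 ranged from -0.016 to 0.00056, so its sign is not fixed. The counts of 0 members past the 2-fold rule, above or below a ratio of 1 were also 0 under each alternative, among them a 99% interval, no minimum, a minimum of 5 CPM and 1.5-fold. Scaling on total counts gave 2 ligand genes and 2 cytoplasmic partner genes above a ratio of 1, in place of 1 each. Levels depended on the length. Per kb of the longest transcript, treated cells were at 90.8 for Ncam1, 31.4 for Cadm1, 1.70 for Alcam, 0.425 for Icam1 and 0.111 for Vcam1, with Ncam1 2.89 times Cadm1, and Icam1 came before Mcam. Per kb of the mean protein-coding transcript they were at 171 for Ncam1, 63.0 for Cadm1, 4.16 for Alcam, 0.647 for Mcam, 0.425 for Icam1 and 0.202 for Vcam1, with Ncam1 2.71 times Cadm1. Depth limits Mcam, Icam1, Vcam1, L1cam and Ncam2, which had at most 19 counts in a library.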

Other observations

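Transcripts of proteins that cut adhesion molecules from the cell surface were read as a further group. All 16 genes of the list of sheddases and their regulators were tested, with a median log2 ratio of -0.04. Adam10, which encodes a sheddase of L1CAM and ALCAM, had 5817 treated and 5654 untreated counts (-0.02, -0.08 to 0.03), and Adam17 had 1699 treated and 1559 untreated counts (0.06, -0.04 to 0.16). An interval above a ratio of 1 was seen for 1 gene (6.25%, against 6.61% of all tested genes), Timp3, which encodes an inhibitor of these metalloproteinases, with 25362 treated and 22160 untreated counts (0.13, 0.10 to 0.16). Intervals below it were seen for 3 genes (18.8%, against 5.65%), among them Adam9, a related metalloproteinase (-0.07, -0.13 to -0.02), and Ncstn, which encodes nicastrin (-0.19, -0.33 to -0.04). Timp1, another inhibitor and among the most abundant per length, was at 77.1 CPM per kb in treated and 79.5 in untreated cells.

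Of 26 cytoplasmic partners 22 were tested, with a median log2 ratio of 0.0092. Epb41l2, a relative of band 4.1, was the 1 gene with an interval above a ratio of 1 (4.55%, against 6.61% of all tested genes), with 3527 treated and 3147 untreated counts (0.10, 0.03 to 0.17), and Ap2m1, a subunit of the endocytic adaptor AP-2, was the 1 gene with one below it (4.55%, against 5.65%), with 5844 treated and 5861 untreated counts (-0.07, -0.12 to -0.02). Msn, encoding moesin, and Actn1, encoding an alpha-actinin, were the most abundant per length, at 150.1 and 104 CPM per kb in treated and 153 and 101 CPM per kb in untreated cells. Of the scaffold genes known to bind CADM1, Cask had 2831 treated and 2640 untreated counts, Mpp3 had 1 treated and 0 untreated counts, and Epb41l3 had 0 in both libraries.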
